A study of Homo sapiens with 6 samples.

Results

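The genes described here are 10 members of the tumour necrosis factor (TNF) superfamily and its receptors, listed by name: the ligands TNFSF10 (TRAIL) and LTB, the death receptors FAS, TNFRSF10A, TNFRSF10B, TNFRSF1A and TNFRSF21, the TRAIL decoy receptor TNFRSF10D, and the receptors TNFRSF1B and LTBR. All 10 were found among the 56638 gene names of the count table, and 9 of them had enough counts to be among the 16340 genes tested. RNA sequencing compared HL60 cells with a CRISPR/Cas9 knockout of SKI with HL60 cells that carried a CRISPR/Cas9 control. The HL60 line derives from a human acute myeloid leukaemia, and SKI encodes a transcriptional co-repressor of SMAD proteins. All 3 knockout libraries are of line 3 and all 3 control libraries of line 1, and both lines grew in RPMI medium with 10% serum, with no other treatment in the labels. Each group was therefore 1 line, so that the knockout of SKI and other differences between lines cannot be told apart. Whether replicates were separate cultures is not in the labels, and the p-values below therefore rest on a spread between libraries that may be technical.

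Ligands of the TNF superfamily are trimers that cluster their receptors at the cell surface. Death receptors carry a cytoplasmic death domain, through which FAS and the TRAIL receptors recruit FADD and caspase-8 and start apoptosis, whereas TNFRSF1A recruits TRADD and RIPK1 and mainly activates NF-kappaB. TNFRSF1B and LTBR lack a death domain and signal through TRAF adaptors. TNFRSF10D binds TRAIL but has a truncated death domain, and is known as a decoy. HL60 cells lack functional p53, which in other cells activates FAS and TNFRSF10B.

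Of the 10 genes, 3 rose in the knockout (FAS, TNFSF10 and TNFRSF1B), 1 fell (TNFRSF21), 5 did not pass the test and LTB could not be tested. Over all tested genes 11.8% were called at an edgeR adjusted p under 0.05, 6.19% higher and 5.63% lower in the knockout. The upstream sequence of 3 of the 4 changed genes is given first, from RefSeq's promoter windows on GRCh38.p14, because these are the genes on which the results turn. Each run is the part of the 250 bases before the RefSeq start that lies outside every exon of GENCODE release 29, and capitals mark motif matches. For FAS the windows lie mostly or wholly in annotated exons, so none is shown.
TNFSF10, chr3:172523508-172523680, minus strand: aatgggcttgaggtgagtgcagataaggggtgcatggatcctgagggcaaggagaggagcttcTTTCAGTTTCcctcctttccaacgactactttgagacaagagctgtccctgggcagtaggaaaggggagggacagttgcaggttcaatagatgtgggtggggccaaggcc
TNFRSF1B, chr1:12166741-12166942, plus strand: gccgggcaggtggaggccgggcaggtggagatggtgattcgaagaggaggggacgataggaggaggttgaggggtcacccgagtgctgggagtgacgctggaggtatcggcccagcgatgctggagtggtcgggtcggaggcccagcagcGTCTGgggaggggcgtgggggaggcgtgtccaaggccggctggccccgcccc
TNFRSF21, chr6:47309906-47310155, minus strand: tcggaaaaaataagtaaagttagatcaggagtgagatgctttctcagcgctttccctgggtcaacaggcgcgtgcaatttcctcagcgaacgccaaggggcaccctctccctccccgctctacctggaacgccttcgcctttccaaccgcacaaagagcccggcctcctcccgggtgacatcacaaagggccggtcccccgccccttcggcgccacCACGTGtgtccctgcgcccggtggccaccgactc

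The motifs searched, on either strand of the whole 250 bases, were CAGAC (SMAD box), TGANTCA (AP-1), TTCNNNGAA (GAS), GGG and TTTCC with any 2 bases between (kappaB), CACGTG (the E-box of MYC) and a pair of GAAA with any 2 bases between (interferon response). They were found in 38.0%, 6.57%, 6.57%, 1.73%, 6.34% and 3.02% of 35116 such windows. TNFSF10 had an interferon-response match whose first base lay 187 bases before the start. TNFRSF1B had another 10 bases before the start, in an annotated exon and not shown, and a CAGAC match 100 bases before it. TNFRSF21 had a CACGTG match 34 bases before the start. Of the FAS windows, not shown, one held a TGANTCA match 242 bases before its start and another a CAGAC match 183 bases before its start. The TNFSF10 window held 2 CpG dinucleotides and 49.6% G and C, against 22 and 72.4% for TNFRSF1B and 20 and 62.0% for TNFRSF21, where the medians of all windows were 11 and 58.0%. A match is a description of letters, and binding was not measured.

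Library totals were between 47930276 and 58553247 counts. SKI mRNA, from the targeted gene, averaged 47.4 ± 10.5 CPM (counts scaled to the TMM-adjusted library size) in the knockout and 78.7 ± 12.99 CPM in the control (SD, n = 3 each, log2 -0.73, edgeR adjusted p = 0.0282). The level of mRNA does not show whether the SKI protein was lost, and protein was not measured here. The call on SKI was lost without knockout replicate 2 (adjusted p = 0.0769), control replicate 2 (0.109) or control replicate 3 (0.136) and with library totals (0.0673). Most promyelocyte markers were high: MPO, CTSG, CD33, MYB and CEBPE each had at least 1842 counts in every library, while ELANE had at most 4. PRTN3 had 13 to 64 counts in the knockout libraries and 448 to 842 in the control libraries. AZU1 had 247 to 516 counts in the knockout libraries and 1959 to 2697 in the control libraries. Of the 8 promyelocyte markers, 7 were tested and 6 fell, where 5.63% of all tested genes fell. The summed level of the 8 was 3181 to 9280 CPM in the knockout and 12814 to 15072 CPM in the control. Of 19 mature neutrophil markers, 11 were tested and 9 rose, where 6.19% of all tested genes rose. The summed level of the 19 was 181 to 221 CPM in the knockout and 47.9 to 58.8 CPM in the control. FCGR3B and ALPL had no count in any library. Monocyte markers summed to at most 0.235 CPM in the knockout and 0.652 CPM in the control. MS4A1 had no count, CD3D and CD3E had none in the knockout and at most 3 in a control library, and CD3G had at most 5 counts in a knockout library and 10 in a control library. The B cell list summed to 18.0 to 25.4 CPM in the knockout and 23.2 to 37.6 CPM in the control, nearly all from PAX5 and CD79A. CD79A rose (log2 1.70, edgeR adjusted p = 0.0162), while PAX5 was at 19.1 CPM in the knockout and 28.7 CPM in the control (log2 -0.59, adjusted p = 0.158). The T and NK cell list, nearly all CD4 and NKG7, summed to 136 to 159 CPM in the knockout and 103 to 157 CPM in the control, and its only called member, CD2, fell, with 8 to 16 counts in the knockout and 27 to 47 in the control (log2 -1.46, edgeR adjusted p = 0.0370). Non-blood markers summed to 4.84 to 9.83 CPM in the knockout and 2.80 to 5.27 CPM in the control. PRTN3, AZU1 and CD33 had log2 fold changes of -4.18, -2.63 and -0.57 and lie on chromosome 19, where the median of 694 genes was -0.48. CTSG and CEBPE, at -0.89 and -1.27, lie on chromosome 14, with a median of -0.19. The neutrophil markers FPR2 and C5AR1, also on chromosome 19, rose (log2 4.49 and 3.73). No marker is given here centred on its chromosome. The part of these marker shifts in the results below was not tested. Fewer cells of a type and less RNA per cell cannot be told apart in bulk RNA.

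Among the listed genes TNFRSF1A mRNA was the most abundant in every library, followed by TNFRSF10B. Levels between genes are given as RPKM (CPM per kilobase of gene length), since genes differ in length. TNFRSF1A averaged 38.2 ± 1.28 RPKM in the knockout and 42.4 ± 6.54 RPKM in the control (SD, n = 3 each). TNFRSF10B, which encodes the TRAIL receptor DR5, averaged 18.6 ± 3.37 RPKM in the knockout and 12.8 ± 0.757 RPKM in the control. In the knockout the order continued with TNFRSF10A at 7.35, LTBR at 7.01, TNFRSF10D at 4.05, TNFSF10 at 2.30, TNFRSF1B at 1.80, FAS at 1.69 and TNFRSF21 at 0.245 RPKM. The values of TNFRSF10A and LTBR overlapped there, as did those of TNFRSF1B and FAS. In the control it continued with LTBR at 6.81, TNFRSF10A at 5.08, TNFRSF10D at 2.98, TNFRSF21 at 1.10, TNFSF10 at 0.782, FAS at 0.766 and TNFRSF1B at 0.607 RPKM. Neighbours among these last 4 overlapped. TNFRSF21 thus stood last in the knockout, and above TNFSF10, FAS and TNFRSF1B in the control by mean level.

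**Figure D1:**
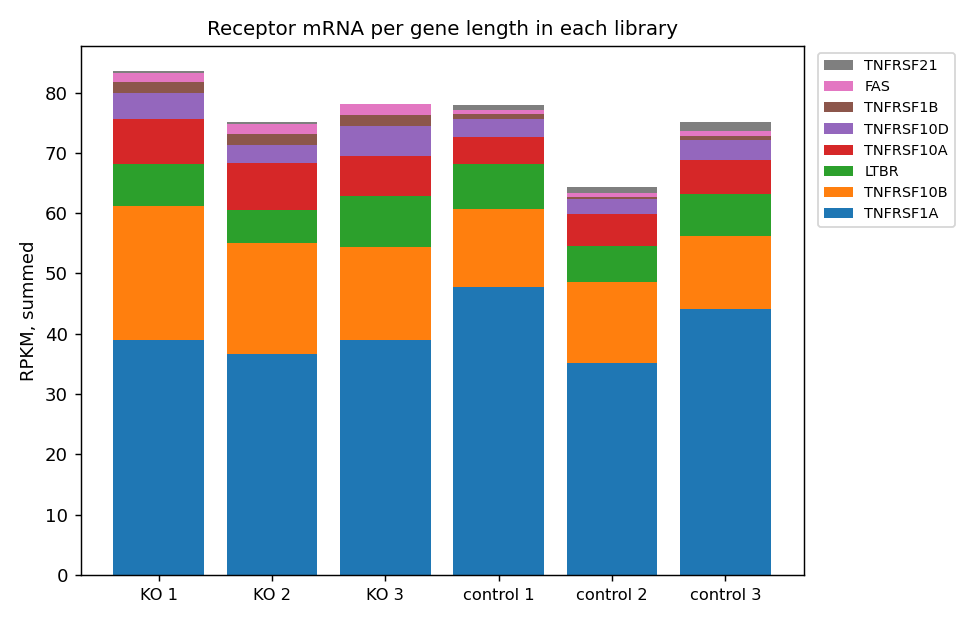
Summed RPKM (vertical axis) of the 8 receptor genes in each of the 3 knockout and 3 control libraries, stacked by gene. TNFRSF1A made up 46.6% to 49.8% of the sum in the knockout and 54.6% to 61.3% in the control, and the whole bars overlapped between groups.

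Summed over the 8 receptors, mRNA per gene length was 83.6, 75.2 and 78.2 RPKM in the knockout libraries and 78.0, 64.3 and 75.1 RPKM in the control libraries. The groups overlapped, and no test was made of this sum. The TNFRSF1A share of it was 48.4% ± 1.61 in the knockout and 58.2% ± 3.39 in the control (SD, n = 3 each), without overlap. The ratio of TNFRSF1A to TNFRSF1B, the pair of receptors for TNF, was 21.95, 19.2 and 22.9 in the knockout and 60.6, 90.6 and 68.4 in the control. These ratios follow from the values of the single genes below and are given as descriptions.

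TNFSF10 mRNA, which encodes the ligand TRAIL, was 2.94-fold higher in the knockout. Its counts were 382, 372 and 489 in the knockout libraries and 154, 119 and 165 in the control libraries, or 6.90, 7.70 and 9.32 CPM against 3.22, 2.02 and 2.91 CPM. Every knockout value lay above every control value, the lowest being 6.90 and the highest control value 3.22. The means were 7.97 ± 1.23 CPM in the knockout and 2.72 ± 0.623 CPM in the control (SD, n = 3 each), which is 1.56 (SE 0.25) on the log2 scale (edgeR adjusted p = 0.00274). With each library left out in turn and under the other alternatives the log2 fold change stayed between 1.38 and 1.69, and it passed in all 15.

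**Figure D2:**
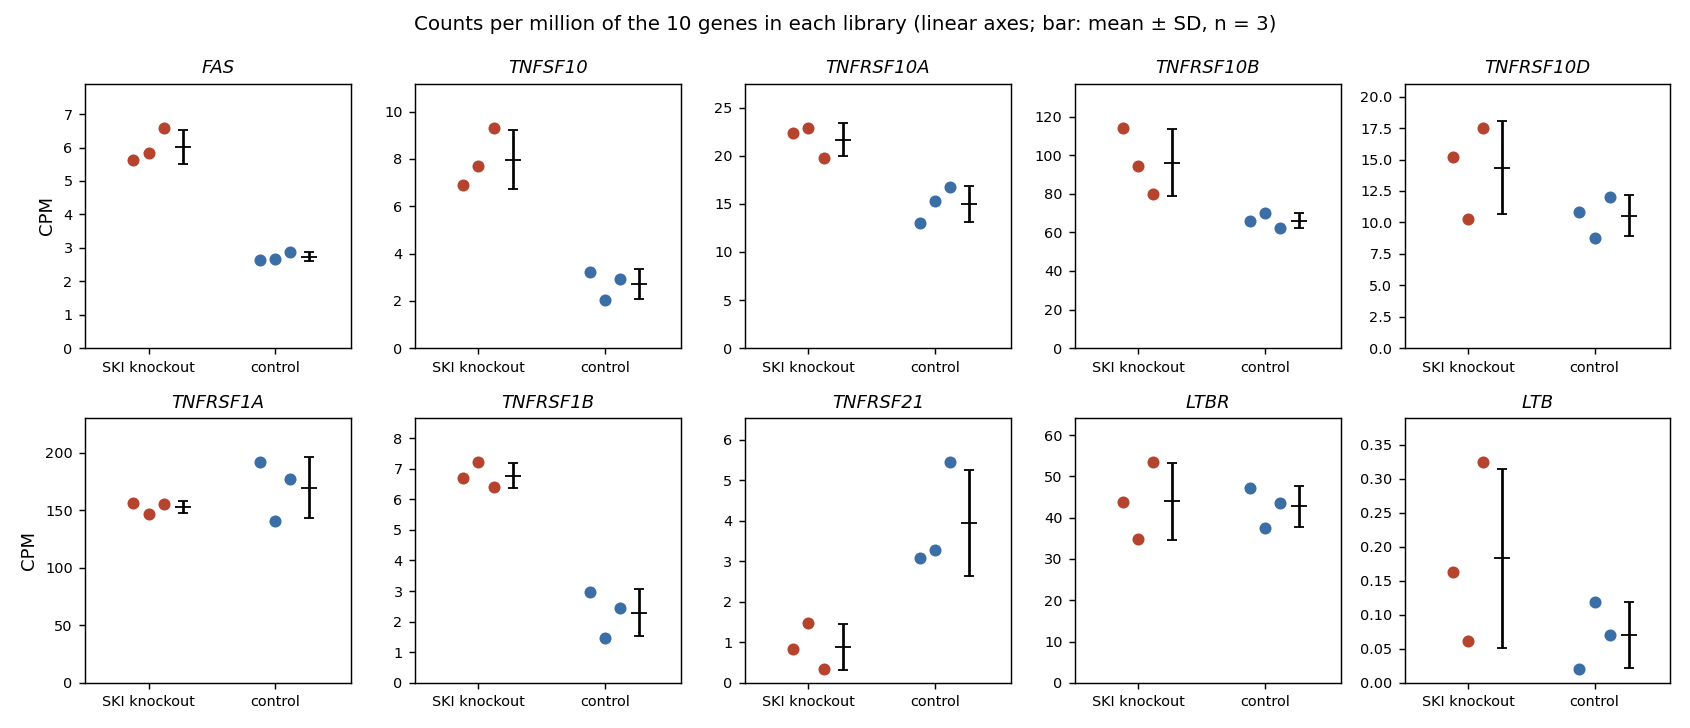
CPM (vertical axis, linear, with its own scale for each gene) of the 10 genes in the 3 knockout libraries (red) and the 3 control libraries (blue), with the mean and SD of each group in black. FAS, TNFSF10, TNFRSF10A, TNFRSF10B and TNFRSF1B were higher in every knockout library and TNFRSF21 was lower, while the groups overlapped for the other genes. Of all tested genes, 16.0% were higher without overlap and 16.1% lower.

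The receptors for TRAIL with a death domain did not pass the threshold. Both were higher in every knockout library than in any control library, as were 16.0% of all tested genes. TNFRSF10B had 114, 94.4 and 79.7 CPM in the knockout libraries and 66.1, 69.9 and 62.1 CPM in the control libraries. The groups did not overlap, and knockout replicate 1 was the highest. Knockout over control, this was 0.54 on the log2 scale (SE 0.16, 95% interval 0.19 to 0.90), and the edgeR adjusted p of 0.0503 just missed 0.05. It passed under 7 of 15 alternatives, in which 8.56% to 14.6% of all genes tested were called, among them DESeq2's Wald test (adjusted p = 0.0305), the authors' size factors (0.0443), each gene centred on its chromosome (0.0420) and without knockout replicate 3 (0.00725). The largest adjusted p over the alternatives was 0.192, without control replicate 3. In the authors' deposited table its log2 fold change was 0.53 (adjusted p = 0.0343).

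TNFRSF10A, which encodes the TRAIL receptor DR4, had 22.4, 22.9 and 19.7 CPM in the knockout libraries and 12.97, 15.3 and 16.7 CPM in the control libraries. These groups did not overlap either. The difference was 0.53 on the log2 scale (SE 0.17, 95% interval 0.16 to 0.90, edgeR adjusted p = 0.0643). It passed without knockout replicate 3 (log2 0.61, adjusted p = 0.0307) and in DESeq2's Wald test (log2 0.54, adjusted p = 0.0325), and in the 13 other alternatives the adjusted p went up to 0.242. The authors' deposited table gives 0.52 on the log2 scale (adjusted p = 0.0357). The ratio of TNFRSF10B to TNFRSF10A, per gene length, was 2.53 ± 0.341 in the knockout and 2.55 ± 0.399 in the control (SD, n = 3 each).

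The decoy receptors for TRAIL did not pass. TNFRSF10D had 15.2, 10.3 and 17.5 CPM in the knockout libraries and 10.9, 8.76 and 11.99 CPM in the control libraries. Knockout replicate 2 lay within the control range, so the groups overlapped. On the log2 scale the difference was 0.45 (SE 0.22, 95% interval -0.04 to 0.93, edgeR adjusted p = 0.226). With 1 library left out it lay between 0.30 (without knockout replicate 3, adjusted p = 0.414) and 0.66 (without knockout replicate 2, adjusted p = 0.0519), and it passed in none of the 15 alternatives. TNFRSF10C, another TRAIL decoy receptor gene, is not among the 10 genes and was low, at 1.35 ± 0.494 CPM in the knockout and 1.07 ± 0.280 CPM in the control (SD, n = 3 each, log2 0.33, edgeR adjusted p = 0.587). Of the 50-base stretches of TNFRSF10C transcripts, 35.4% also occur in transcripts of other genes in GENCODE, which leaves its level uncertain. For the 10 genes this share was at most 3.55%, in LTBR. The ratio of summed TNFRSF10A and TNFRSF10B to TNFRSF10D was 6.92, 8.95 and 4.47 in the knockout and 5.61, 7.57 and 5.22 in the control, so that the groups overlapped.

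FAS mRNA, which encodes the receptor for FAS ligand, was 2.20-fold higher in the knockout. It had 311, 282 and 346 counts in the knockout libraries and 126, 157 and 164 counts in the control libraries, or 5.62, 5.84 and 6.59 CPM against 2.64, 2.66 and 2.89 CPM. The groups were tight and far apart, with SDs of 0.511 CPM in the knockout and 0.138 CPM in the control. This is 1.14 on the log2 scale (SE 0.21, edgeR adjusted p = 0.00646), and FAS passed in all 15 alternatives with values between 1.09 and 1.201. Exons of FAS overlap those of ACTA2 on the opposite strand in GENCODE, and how the counting treated strand is not stated. ACTA2, the smooth muscle actin gene, was at 2.82, 3.66 and 4.54 CPM in the knockout and 1.46, 1.58 and 2.45 CPM in the control. Its log2 fold change was 1.001 (edgeR adjusted p = 0.0468), and the call was lost without any of the 6 libraries (adjusted p of 0.0554 to 0.162) and with chromosome centring (0.0580). If counting ignored strand, reads of FAS and of ACTA2 that fall where they overlap cannot be told apart. The same limit holds for TNFRSF10B with RHOBTB2 (log2 -0.21, edgeR adjusted p = 0.499), for TNFRSF10A with TNFRSF10A-AS1 and AC100861.1, and for LTBR with SCNN1A, which had 2 to 12 counts in the knockout and 4 to 7 in the control. FASLG, the ligand gene of FAS, had no count in any library, where 3 counts correspond to at most 0.0621 CPM in a knockout library and 0.0628 CPM in a control library. These limits cover counting error only.

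TNFRSF1B, which encodes the TNF receptor TNFR2 that lacks a death domain, was 2.96-fold higher in the knockout. Its values were 6.69, 7.20 and 6.40 CPM in the knockout libraries and 2.97, 1.46 and 2.43 CPM in the control libraries. The groups did not overlap, and control replicate 2 was the lowest of all. This is 1.57 on the log2 scale (SE 0.27, edgeR adjusted p = 0.00439). Under the alternatives it lay between 1.32, without control replicate 2, and 1.80, without control replicate 1, and passed in all 15.

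TNFRSF1A, which encodes the death-domain receptor TNFR1, showed no difference beyond the spread between libraries. It had 156, 147 and 156 CPM in the knockout and 191, 141 and 177 CPM in the control. The control range held all knockout values. The log2 fold change was -0.15 (SE 0.16, edgeR adjusted p = 0.583), and its 95% interval of -0.49 to 0.19 leaves out a change of the size seen for TNFRSF1B. TNF itself averaged 3.81 ± 2.30 CPM in the knockout and 2.72 ± 1.32 CPM in the control (SD, n = 3 each, log2 0.49, edgeR adjusted p = 0.526).

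LTBR, the lymphotoxin beta receptor gene and a neighbour of TNFRSF1A on chromosome 12, also overlapped between groups. It had 43.7, 34.8 and 53.4 CPM in the knockout libraries and 47.3, 37.5 and 43.6 CPM in the control libraries. The difference was 0.04 on the log2 scale (SE 0.18, 95% interval -0.35 to 0.43, edgeR adjusted p = 0.914). Without knockout replicate 3 it was -0.10 and without control replicate 2 it was -0.05, so LTBR had no stable direction.

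LTB, which encodes lymphotoxin beta, a ligand of LTBR known mainly from lymphocytes, was close to the limit of detection. It had 9, 3 and 17 counts in the knockout libraries and 1, 7 and 4 counts in the control libraries, too few to pass the filter. The groups overlapped. Without the filter, where 9.5% of all genes tested were called, its log2 fold change was 1.34 (SE 0.69, edgeR adjusted p = 0.272). The count table gives LTB a length of 8017 bases, 5.22 times its exon length in GENCODE. The neighbouring TNF and LTA, also in the major histocompatibility complex, are given 7.78 and 7.00 times theirs, whereas the 9 other genes lie between 0.838 and 1 times. No RPKM is therefore given for LTB, and whether reads of this region were lost in counting was not tested.

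TNFRSF21, which encodes the death receptor DR6, was 4.48-fold lower in the knockout and the only one of the 10 genes that fell. It had 46, 71 and 18 counts in the knockout libraries and 147, 194 and 309 counts in the control libraries, or 0.831, 1.47 and 0.343 CPM against 3.08, 3.29 and 5.44 CPM. The groups did not overlap, but each was spread, with knockout replicate 3 the lowest and control replicate 3 the highest. The means were 0.881 ± 0.565 CPM in the knockout and 3.94 ± 1.31 CPM in the control (SD, n = 3 each), which is -2.16 on the log2 scale (SE 0.44, edgeR adjusted p = 0.00941). The call was lost without knockout replicate 1 (log2 -2.12, adjusted p = 0.0557, 6.09% of all genes called) and without control replicate 3 (log2 -1.86, adjusted p = 0.0614, 4.45% called). TNFRSF21 lies on chromosome 6, where the median log2 fold change of 518 genes was 0.43, and after centring on its chromosome it stood at -2.59 (adjusted p = 0.00476, 8.56% of all genes called). The medians of chromosomes 1, 3 and 10, where TNFRSF1B, TNFSF10 and FAS lie, were 0.00, 0.01 and -0.01, and those of chromosomes 8 and 12 were -0.03 and 0.03. Per gene length the ratio of TNFRSF21 to FAS was 0.147, 0.249 and 0.0515 in the knockout and 1.16, 1.22 and 1.87 in the control.

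**Figure D3:**
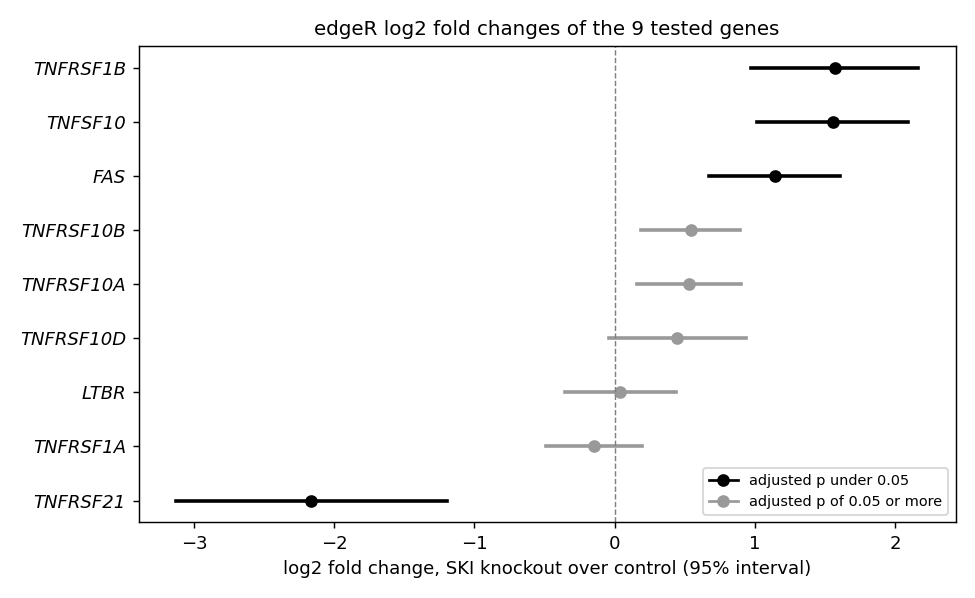
Log2 fold change of knockout over control (horizontal axis) with its 95% interval for the 9 tested genes from edgeR, in black where the adjusted p was under 0.05 and in grey elsewhere. TNFRSF1B, TNFSF10 and FAS lay at 1.57, 1.56 and 1.14 and TNFRSF21 at -2.16.

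Of the 9 tested genes, 3 rose and 1 fell, where 6.19% of all tested genes rose and 5.63% fell. Their median log2 fold change was 0.53, against -0.01 over all genes tested. In 5 of the 9 the knockout values all lay above the control values and in 1 all below, against 16.0% and 16.1% of all tested genes, or 32.2% in either direction. The 10 genes are few and were listed with earlier results of these data known, so these shares describe them and test nothing. The authors' deposited table calls 6 of the 10, namely these 4 with TNFRSF10A and TNFRSF10B, where 14.4% of its 18100 genes with an adjusted p are called.

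**Figure D4:**
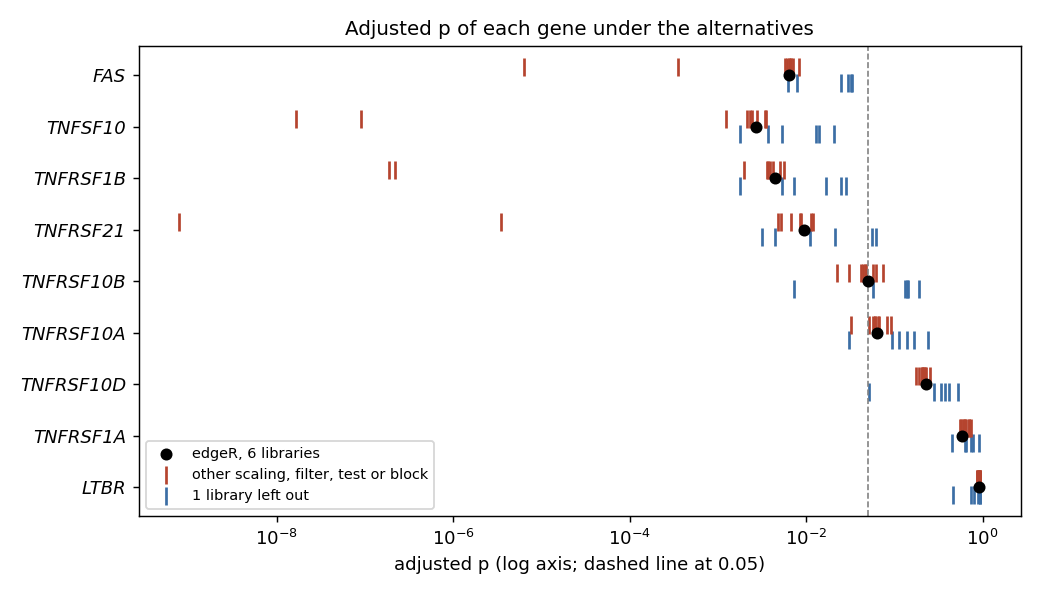
Adjusted p (horizontal axis, log scale, dashed line at 0.05) of the 9 tested genes in edgeR with all 6 libraries (black), under other scalings, filters, tests or the block (red) and with 1 library left out (blue). FAS, TNFSF10 and TNFRSF1B stayed below 0.05 throughout, TNFRSF21 exceeded it without either of 2 libraries, and TNFRSF10B and TNFRSF10A fell on both sides.

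Of the 21 other receptor genes of the superfamily 10 were tested, of which 1 rose and none fell, where 11.8% of all tested genes were called, with a median log2 fold change of 0.54. The gene that rose was TNFRSF4, which encodes OX40, a TNF superfamily receptor found on T cells, and it was low and scattered. It had 49, 10 and 82 counts in the knockout libraries and 12, 2 and 5 in the control libraries, so the groups overlapped although edgeR's adjusted p was 0.0280 (log2 2.87, SE 0.75). The call was lost without knockout replicate 1 (log2 2.90, adjusted p = 0.0900), control replicate 2 (2.40, 0.106) or control replicate 3 (2.68, 0.138) and in limma-voom (2.78, 0.0538). The log2 fold change was 3.82 without control replicate 1 and 2.22 without knockout replicate 3. The highest levels among the other receptors were those of TNFRSF8 (CD30), RELT and TNFRSF14 (HVEM). TNFRSF8 stood at 17.3 ± 1.81 RPKM in the knockout and 10.7 ± 4.93 RPKM in the control (SD, n = 3 each, edgeR adjusted p = 0.112). RELT, at 6.35 ± 0.577 RPKM in the knockout and 7.97 ± 0.358 RPKM in the control, and TNFRSF14, at 3.30 ± 1.24 RPKM in the knockout and 2.26 ± 0.874 RPKM in the control, did not pass either (edgeR adjusted p of 0.170 and 0.298).

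Of the 16 other ligand genes 8 were tested and none passed edgeR's test, where 11.8% of all tested genes were called. With so few genes this does not set the ligands apart from the rest. Their median log2 fold change was 0.40. In edgeR 1 had an unadjusted p under 0.05, and the share of all tested genes with such a p was not counted. DESeq2's Wald test, in which 14.6% of all genes tested were called, and limma-voom called 0 of them. TNF and LTA, whose deposited lengths are 7.78 and 7.00 times their exon length, are left out of the order by RPKM. The highest levels of the others were those of TNFSF13 (APRIL), at 2.37 RPKM in the knockout and 2.32 RPKM in the control, TNFSF9, at 2.11 RPKM in the knockout and 1.68 RPKM in the control, and TNFSF13B (BAFF), at 2.01 RPKM in the knockout and 1.46 RPKM in the control.

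**Figure D5:**
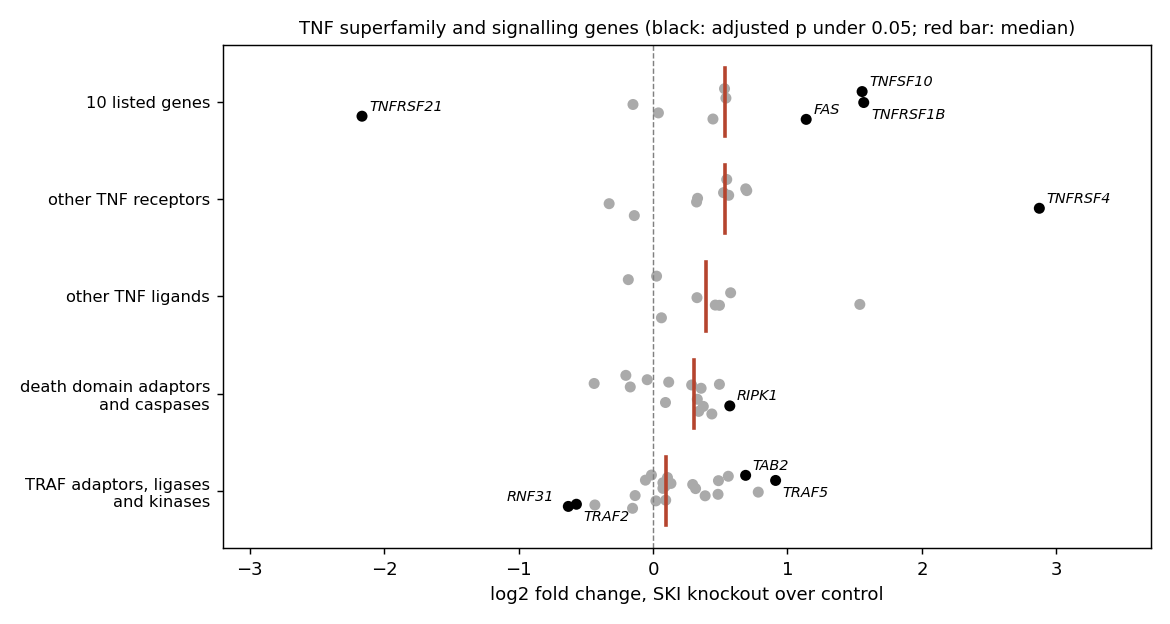
Log2 fold change of knockout over control (horizontal axis) for the tested genes of the 5 lists, 1 point a gene, in black and named where edgeR's adjusted p was under 0.05; red bars are list medians. Medians ran from 0.09 for TRAF adaptors, ligases and kinases to 0.54 for the other receptors.

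Of 16 death domain adaptor and caspase genes 14 were tested, of which 1 rose and 13 were not called, again near the 11.8% of all tested genes. The median over the 14 was 0.31. In 7 of them the knockout values all lay above the control values and in 2 all below, against 16.0% and 16.1% of all tested genes. This list was not tested as a set. FADD, the adaptor that links FAS and the TRAIL receptors to caspase-8, was at 51.3 ± 4.797 CPM in the knockout and 40.1 ± 0.747 CPM in the control (SD, n = 3 each, log2 0.36, edgeR adjusted p = 0.132). CASP8, which encodes the initiating caspase, was at 28.9 ± 5.16 CPM in the knockout and 32.4 ± 4.17 CPM in the control (log2 -0.17, adjusted p = 0.586). CFLAR, the gene of the caspase-8 inhibitor FLIP, was at 23.9 ± 0.179 CPM in the knockout and 27.5 ± 2.998 CPM in the control (log2 -0.20, edgeR adjusted p = 0.440). CASP8 and CFLAR were chosen for their roles after their values were seen. The highest RPKM of this list in the knockout, besides FADD, were those of FAF1, at 32.4 RPKM in the knockout and 30.4 RPKM in the control (edgeR adjusted p = 0.717), and PEA15, at 19.5 RPKM in the knockout and 13.8 RPKM in the control (0.0557). In the control BID stood above PEA15, at 15.4 RPKM, and it was at 16.7 RPKM in the knockout. RIPK3, a kinase of necroptosis, had no count in any library. The gene that rose was RIPK1, a kinase of the TNFR1 complex, with 26.3, 28.97 and 23.0 CPM in the knockout libraries and 17.2, 18.8 and 16.7 CPM in the control libraries (log2 0.57, edgeR adjusted p = 0.0413). RIPK1 lies on chromosome 6, and centred on that chromosome its log2 fold change was 0.14 (adjusted p = 0.627). Its call was also lost without 5 of the 6 libraries, the exception being knockout replicate 3 (adjusted p of 0.0756 to 0.156 without the others).

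All 23 genes of the list of TRAF adaptors, ubiquitin ligases and kinases were tested, of which 2 rose, 2 fell and 19 were not called, where 6.19% of all tested genes rose and 5.63% fell. Their median log2 fold change was 0.09. TRAF5, an adaptor of LTBR and other receptors, had 7.53, 9.21 and 8.86 CPM in the knockout libraries and 3.89, 3.68 and 6.02 CPM in the control libraries, or 0.91 on the log2 scale (SE 0.24, edgeR adjusted p = 0.0288). TAB2, a subunit of the TAK1 kinase complex, rose by 0.69 on the log2 scale (adjusted p = 0.0278) and lies on chromosome 6. TRAF2, the main adaptor of the TNF receptors, had 39.3, 35.7 and 43.2 CPM in the knockout and 57.2, 56.3 and 61.9 CPM in the control, and fell by 0.57 on the log2 scale (adjusted p = 0.0261). RNF31, the catalytic subunit of the linear ubiquitin ligase, was at 49.2 ± 1.66 CPM in the knockout and 76.2 ± 4.42 CPM in the control (SD, n = 3 each, log2 -0.63, edgeR adjusted p = 0.0129). TRAF2 lies on chromosome 9 and RNF31 on chromosome 14, whose medians were -0.23 and -0.19. After chromosome centring only TRAF5 of the list passed (log2 0.90, adjusted p = 0.0387), while TAB2, TRAF2 and RNF31 were at 0.26, -0.34 and -0.45 with adjusted p of 0.401, 0.175 and 0.0606. With 1 library left out, TRAF5 lost its call without knockout replicate 1 or control replicates 1 or 2 (adjusted p of 0.0571, 0.108 and 0.123), and RNF31 without control replicates 2 or 3 (0.0624 and 0.0705). TAB2 lost it without knockout replicate 1 (log2 0.48, adjusted p = 0.0829) and without each control library, and TRAF2 without each library but knockout replicate 3. RBCK1, another subunit of that ligase, had the highest level of the list, at 128 ± 40.6 RPKM in the knockout and 74.4 ± 19.2 RPKM in the control (SD, n = 3 each, log2 0.78, edgeR adjusted p = 0.0701), followed by TNIP1 at 16.7 RPKM in the knockout and 18.3 RPKM in the control (0.598).

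The genes whose profile over the 6 libraries was most like that of a changed member were found by the root mean square difference of centred log2 CPM, among 10568 genes. For FAS they were MSH5-SAPCD1, MSH5 and GBP3, at differences of 0.0758 to 0.0843, and MSH5-SAPCD1 is a read-through gene that shares exons with MSH5. For TNFSF10 they were CD37, APOBEC3D and C1RL (0.0742 to 0.0870), and for TNFRSF1B they were GPR132, APOBEC3D and C10orf25 (0.126 to 0.149). For TNFRSF21 they were BZRAP1, TCF4 and IRS1 (0.282 to 0.373), and its own average log2 CPM of 1.29 lay below the minimum of 2 set for the genes searched, with 18 to 71 counts in the knockout libraries and 147 to 309 in the control libraries.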

How the data were processed

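RNA of 3 SKI knockout and 3 control libraries of HL60 was made into libraries with a stranded mRNA kit, according to the labels. The tools in the submitters' processing notes are bcl2fastq, TopHat2, Subread, featureCounts, DESeq and DESeq2, and the build is hg19 (GRCh37); how counting treated strand and shared reads is not stated. The authors deposited raw counts and a length for each gene, on which all tests were run. Their other deposited table has size-factor-scaled counts (a signal), with log2 fold changes, a test score and p-values.

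Genes passing edgeR's filterByExpr (edgeR 4.0.16, limma 3.58.1, R 4.3.3) were scaled by TMM. The quasi-likelihood F test had group as its only term, and p was adjusted by Benjamini-Hochberg over all 16340 tested genes, with a threshold of 0.05. Standard errors and 95% intervals come from F. CPM use TMM-scaled totals, and RPKM divide CPM by the deposited length. Profiles use log2 CPM with a prior count of 2, searched among genes averaging at least 2; the members themselves had no such minimum.

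Members and lists were chosen with earlier results of these data known, so no list received a test. The text names the 10 members and SKI, in each pathway list up to 6 genes past the threshold (by smallest p) and those of its 3 highest RPKM, and the 3 closest profiles of each changed member. Any other gene was chosen after its values were seen. Alternatives were 3 other scalings, 2 other filters, DESeq2 1.42.0, limma-voom, a replicate block, chromosome centring and leaving out each library. Chromosomes, exon overlaps and shared stretches come from GENCODE 29 by symbol, on a later build than the counts. Promoter windows were found for 7 of the 10 genes.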

Additional observations from a re-analysis of the deposited data

How the results depend on the processing

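Of the 10 genes, the number called was 4 with all libraries and 3 to 6 over the alternatives. It was 6 in DESeq2's Wald test and without knockout replicate 3, where 14.6% and 13.6% of all genes tested were called. It was 3 without knockout replicate 1 and without control replicate 3, where 6.09% and 4.45% were called. FAS, TNFSF10 and TNFRSF1B kept their calls in all 15, and TNFRSF21 in 13. LTBR reversed to -0.10 without knockout replicate 3 and to -0.05 without control replicate 2, and with 1 library left out lay between -0.10 and 0.21. Over all genes 1932 passed, and with 1 library left out 740 (without control replicate 3) to 2488 (without knockout replicate 2). The count was also 932 without control replicate 2, 1025 without knockout replicate 1 and 2853 without the filter. The other receptors had 1 call, against 2 with no filter and with the replicate block, 0 with CPM of at least 1 in 3 libraries and in limma-voom, and 0 to 1 with 1 library left out. The other ligands had 0 calls, against 1 with no filter and with chromosome centring, and 0 to 1 with 1 library left out; DESeq2 and limma-voom called 0. The death domain list had 1 call, against 0 with library totals, with the replicate block and with chromosome centring, 2 in DESeq2's Wald test, and 0 to 1 with 1 library left out. The TRAF list had 4 calls, against 6 with no filter and in DESeq2, 1 with chromosome centring, and 1 to 6 with 1 library left out. The share of all genes tested that was called moved as well, from the 11.8% given above. That share was 9.5% with no filter, 14.6% in DESeq2's Wald test and 8.56% with chromosome centring. Among the fits with 1 library left out were shares of 4.45% (without control replicate 3) and 13.6% (without knockout replicate 3). A change in a list's count need therefore not be particular to that list. Fits without a library hold fewer samples; the cause of the other changes was not tested.

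The labels give same-numbered libraries nothing in common but the number. Their deviations from the group means correlated at -0.17, 0.42 and -0.09 over 10568 genes, and not every library correlated best with its own number. The largest correlation, 0.54, was between knockout replicate 3 and control replicate 1. Deviations from a group mean depend on one another, so these values do not decide which libraries were handled together, and this was not tested. With the number as a block 2107 genes were called and the calls of the 10 genes did not change. LTB had 1 to 17 counts a library, too few for the test.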
